A study of Sus scrofa with 6 samples.

Results

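Calcium release, reuptake and buffering in skeletal muscle were followed here through 8 genes, RYR1, CASQ1, CASQ2, ATP2A1, ATP2A2, PLN, SLN and PVALB, compared between longissimus dorsi muscle (LDM), the muscle along the back known for its fast glycolytic fibres, and psoas major muscle (PMM), the more oxidative muscle under the lumbar spine. The probes of these genes were found by name, from the probe names and descriptions on the array, and not by their measured values. The list of genes itself was chosen with earlier results of these data known. The name search found 10 probes, 9 of 6 of these genes and 1 of RYR2, the cardiac ryanodine receptor, which its protein name brought in. It found no probe of ATP2A2 or PVALB, and 4 probes of those were added through RefSeq (Sscrofa11.1), which gives 13 probes of 8 genes among 43603 probes and 3366 genes named on the array.

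All animals were female Landrace pigs of 210 days, untreated and unrelated, kept on the same diet, and the muscle pieces were frozen at slaughter after a period without feed. Total RNA of whole muscle was labelled with Cy3 and hybridised to 1-colour Agilent arrays, 3 LDM and 3 PMM, numbered 1 to 3 in each muscle. Each of 3 pigs gave both muscles, according to the methods of the study, but no label says that a number stands for a pig. The replicate number is also the scan day, so pig and scan day cannot be told apart.

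Values are normalized log2 signals, the log2 of the background-corrected and scanner-processed intensity minus the log2 of that array's 75th percentile, so that 0 is a probe at the 75th percentile. Differences are PMM minus LDM on that scale, with the standard error (SE) of the limma fit without a block. The 75th percentiles ran from 595 to 883 intensity units and 58.5% to 72.4% of spots were well above background. The extraction note in the labels speaks of adipose tissue, whereas all 5 skeletal muscle markers (ACTA1, CKM, TTN, DES and MYLPF) were well above background on all 6 arrays and ran with a summed signal of 2198 to 3555 times the 75th percentile in LDM and 2696 to 3949 in PMM. The adipocyte list (ADIPOQ, FABP4, PLIN1, LEP and CIDEC) ran with a summed signal of 72.4 to 229 in LDM and 61.6 to 244 in PMM.

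A twitch begins when the voltage sensor of the surface membrane opens the ryanodine receptor, and calcium stored on calsequestrin leaves the sarcoplasmic reticulum. The SERCA pumps return it, phospholamban and sarcolipin hold the pumps back, and parvalbumin binds calcium in the cytosol of fast fibres. Fast fibres use ATP2A1 (SERCA1) and CASQ1, whereas slow fibres and heart use ATP2A2 (SERCA2) and also make CASQ2 and PLN. In whole muscle, fewer fibres of a type and less RNA per fibre cannot be told apart.

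The probes are oligos of 60 bases. Sequences are shown for the probes of RYR1, CASQ1 and CASQ2 that have an open reading frame and a protein named in the design, and for RYR2. The transcripts of the calsequestrin forms and of the ryanodine receptor forms were not aligned here. Which letters of a probe differ between forms is therefore not shown. The brightest CASQ1 probe is not among them. All are written 5′ to 3′ as the array design gives them.
RYR1 A_72_P088506: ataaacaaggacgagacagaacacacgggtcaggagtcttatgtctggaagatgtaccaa
RYR2 A_72_P414013: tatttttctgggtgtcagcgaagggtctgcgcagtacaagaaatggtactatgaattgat
CASQ1 A_72_P032481: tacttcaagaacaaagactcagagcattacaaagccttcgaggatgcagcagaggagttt
CASQ1 A_72_P414408: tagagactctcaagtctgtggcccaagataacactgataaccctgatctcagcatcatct
CASQ2 A_72_P306059: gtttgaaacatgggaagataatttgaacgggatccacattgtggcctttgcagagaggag
The longest run of bases that any of the 91 pairs among the 14 probes (the 13 and RYR2) had in common on the same strand was 10 bases. Probes of the same gene had runs as short, such as 5 bases for the SLN pair. The runs thus do not tell whether a probe also binds RNA of another form, which was not tested. The other 9 probe sequences were not placed in a transcript here and are not printed. Of the 14 probes, 4 held the polyadenylation hexamer AATAAA, searched on the probe strand only, which stands in 12.1% of all probes.

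PLN and ATP2A2 were the genes whose arrays separated the muscles. PLN, the membrane peptide that slows the SERCA pump until it is phosphorylated, lay at 4.91, 5.88 and 4.69 in LDM 1 to 3 and at 7.07, 6.95 and 6.36 in PMM 1 to 3. Every PMM array was above every LDM array. The LDM mean was 5.16 ± 0.63 and the PMM mean 6.79 ± 0.38 (SD, n = 3 each), a difference of 1.63 (SE 0.40, 95% interval 0.72 to 2.54), or 3.10-fold. PMM was higher in 3 of 3 pairs of the same number, by 2.16, 1.06 and 1.67. The unadjusted p of limma was 0.0031, the exact two-sided permutation p over the 6 arrays was 0.1, the smallest that 3 against 3 allows, and the limma p adjusted over all 25837 probes tested was 1.0. PLN therefore did not pass the threshold of 0.05.

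ATP2A2, the SERCA pump of slow fibres, heart and non-muscle cells, had 3 probes that did not move alike. The probe A_72_P329558, whose source record is titled as a non-muscle transcript of the pump, lay at 6.67, 6.36 and 5.67 in LDM and at 8.21, 7.16 and 6.96 in PMM. Another probe of the same record, A_72_P036761, lay at 6.53, 6.15 and 5.96 in LDM and at 8.32, 6.84 and 7.15 in PMM. On both, all PMM arrays were above all LDM arrays. The differences were 1.21 (SE 0.43, 95% interval 0.22 to 2.20), or 2.31-fold, and 1.22 (SE 0.43, 95% interval 0.25 to 2.19), or 2.33-fold, with unadjusted limma p of 0.022 and 0.020 and an exact permutation p of 0.1 each. The adjusted limma p was 1.0 for both. PMM was higher in 3 of 3 pairs, by 1.55, 0.79 and 1.29 on the first probe and by 1.79, 0.69 and 1.18 on the second.

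The third probe of ATP2A2, A_72_P303154, drawn from the RefSeq transcript, lay at -0.22, 0.28 and 0.93 in LDM and at 0.53, 0.44 and 1.18 in PMM. These groups overlapped. The difference was 0.39 (SE 0.39, 95% interval -0.50 to 1.28), or 1.31-fold, with an exact permutation p of 0.4 and an adjusted limma p of 1.0, although PMM was higher in 3 of 3 pairs, by 0.75, 0.16 and 0.25. Over the 6 arrays the pair of probes from the non-muscle record correlated with each other at a Pearson r of 0.96, and with A_72_P303154 at 0.12 and -0.08. These arrays share muscles and scan days, so these are descriptions.

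**Figure D1:**
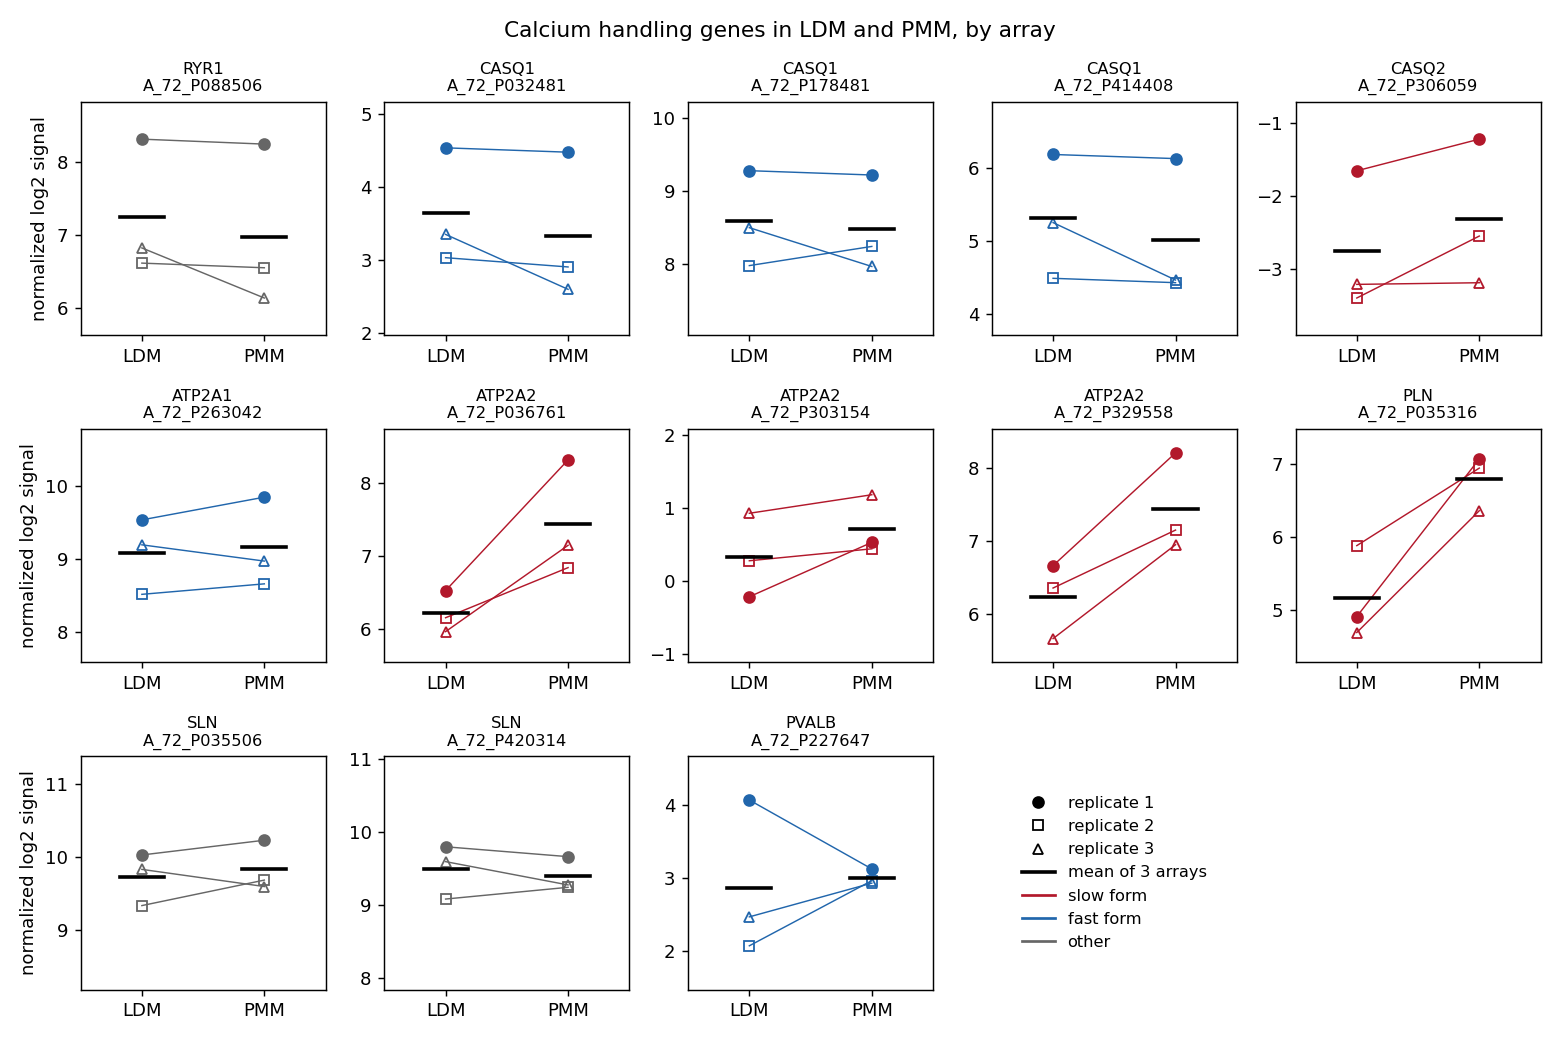
Normalized log2 signal (y axis) of each of the 13 probes on each of the 6 arrays, with LDM on the left and PMM on the right, marks by replicate number, lines joining arrays of the same number, black bars for the mean of 3 arrays, and slow forms in red, fast forms in blue and others in grey. PLN and the ATP2A2 probes A_72_P036761 and A_72_P329558 have every PMM array above every LDM array. On 11 of 13 probes the array numbered 1 is the brightest in both muscles, a count not made over all probes.

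Counted over the set, 3 of 13 probes (23.1%), of 2 genes, had muscles that did not overlap, all with PMM above, where 5.94% of all probes tested did not overlap in either direction and 3.07% did so with PMM above. An unadjusted limma p under 0.05 was met by the same 3 of 13 probes and by 2.62% of all. After adjustment limma called 0 of 13, where it called 8 of 25837 probes, or 0.031%. In 8 of 13 probes (61.5%) all 3 pairs went the same way, 5 higher in PMM and 3 lower, beside 35.8% of all probes (16.4% higher in PMM and 19.4% lower). The probes of a gene share its RNA, so these are not 13 independent measurements.

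With the replicate number as a block, limma called 17 probes, or 0.0658% of those tested, and again 0 of 13. The block brought the adjusted p to 0.173 for PLN, 0.20 for ATP2A2 A_72_P329558 and 0.22 for A_72_P036761. At gene level, with 1 brightest probe per named gene and 2785 genes to adjust over, limma called 0 genes without the block and 210, or 7.54%, with it. Of the 8 genes, 2 were among those 210, PLN (adjusted limma p 1.3e-04) and ATP2A2 (0.0011), both higher in PMM, as were 131 of the 2785 genes (4.7%). Neither the block alone nor the smaller number of tests alone gave a call. The unadjusted limma p with the block also fell for the same probe, because limma draws its variances from the features fitted together. It went from 0.00085 to 7.9e-07 for PLN and from 0.0015 to 1.5e-05 for ATP2A2 A_72_P329558. The gene-level calls thus rest on variances drawn from other genes as well as on the smaller number of tests, and not on the spread of PLN and ATP2A2 alone. The 3 pairs had an SD of 0.55 for PLN and 0.38 for ATP2A2 A_72_P329558. Their exact sign-flip p was 0.25 each, the smallest that 3 pairs allow.

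Only the arrays numbered 2 and 3 share a slide with the other muscle, and those numbered 1 stood on slides of their own. With the slide as a block, which leaves the muscle difference to pairs 2 and 3, limma called 529 probes, or 2.05%, and 2 of the 13, PLN with 1.37 (adjusted limma p 0.0013) and ATP2A2 A_72_P329558 with 1.04 (0.045). Without the arrays numbered 1 and with the replicate block, it called 805 probes, or 3.02% of those tested, and 3 of the 13, these and ATP2A2 A_72_P036761 with 0.93 (adjusted limma p 0.039). The slide fit gave each of the 13 probes the same SE of 0.31, and the fit without the arrays numbered 1 gave 0.27 to 0.28. In these 2 fits the calls therefore rest on a variance pooled over probes and hardly on the spread of the probe itself. Within each slide, both differences of PLN (1.06 and 1.67) and of the ATP2A2 probes of the non-muscle record were above 0.

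Markers of fibre types and of other cells, among them smooth muscle, which also makes PLN and ATP2A2, were read on the same arrays. The 3 slow fibre markers with a probe were all higher in PMM, MYH7, the slow myosin heavy chain, by 0.46, TNNI1, slow troponin I, by 1.03, and TNNT1, slow troponin T, by 0.26. Their summed signal was 1073 to 1657 times the 75th percentile in LDM and 1479 to 2353 in PMM. TNNI1 was called at gene level with the block (adjusted limma p 0.0059) and the others were not. Of the 6 fast fibre markers, 3 were higher in PMM, with a median difference of 0.04, and none was called at gene level with the block. Among them MYH2, a fast oxidative myosin heavy chain, differed by 0.49 and TNNT3, fast troponin T, by 0.40, values near that of MYH7. Their summed signal was 3216 to 5306 in LDM and 3634 to 6138 in PMM, and the ranges of both fibre lists overlapped between muscles. The 3 smooth muscle markers with a probe, of 6 listed, were ACTA2, CNN1 and SMTN, higher by 0.52, 0.52 and 0.60 and not called at gene level with or without the block, with a summed signal whose ranges overlapped, 113 to 201 in LDM and 190.3 to 230.1 in PMM. The 4 endothelial markers had a median difference of 0.28 and a summed signal of 51.9 to 159 in LDM and 88.4 to 153 in PMM. The 4 fibroblast markers were lower in PMM, with a median difference of -0.64 and 2 called at gene level with the block, as were 2 of the 5 adipocyte markers, which had a median of -0.63. The part of fibre type and of other cells in the PLN and ATP2A2 values was not tested. RYR2 was well above background on 0 of 6 arrays. Of the 4 heart markers listed (NPPA, NPPB, MYH6 and MYL7), 2 had a probe and 0 passed the detection filter of the tests.

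RYR1, the release channel of skeletal muscle, lay at 8.31, 6.61 and 6.82 in LDM and at 8.24, 6.55 and 6.14 in PMM. The muscles overlapped over most of their range, and the arrays numbered 1 stood 3.36-fold above the mean of the others. PMM was lower in 3 of 3 pairs, mostly in the third. The difference was -0.27 (SE 0.64, 95% interval -1.73 to 1.18) with an exact permutation p of 0.5. The RYR2 probe was well above background on 0 of 6 arrays and was not tested.

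CASQ1, the calcium store protein of fast fibres, was read by 3 probes. The brightest, A_72_P178481, lay at 9.28, 7.98 and 8.50 in LDM and at 9.22, 8.24 and 7.97 in PMM, with a difference of -0.11 (SE 0.46, 95% interval -1.15 to 0.94) and an exact permutation p of 0.7. A_72_P414408 lay at 6.19, 4.49 and 5.26 in LDM and at 6.13, 4.43 and 4.47 in PMM, with a difference of -0.30 (SE 0.58, exact permutation p 0.5). The groups overlapped on both. A_72_P032481 lay at 4.53, 3.03 and 3.35 in LDM and at 4.47, 2.90 and 2.59 in PMM, with a difference of -0.31 (SE 0.58, exact permutation p 0.5). Within pairs, A_72_P032481 and A_72_P414408 were lower in PMM in 3 of 3, mostly in the third (-0.75 and -0.79, against -0.06 or -0.13 in the others), while A_72_P178481 differed by -0.06, 0.26 and -0.53. RYR1 followed the same course, with differences of -0.07, -0.06 and -0.69, and it correlated with the CASQ1 probes at a Pearson r between 0.962 and 0.997 over the 6 arrays, as a description.

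CASQ2, the calsequestrin of heart and slow fibres, lay below the 75th percentile of every array, at -1.66, -3.40 and -3.21 in LDM and at -1.22, -2.55 and -3.19 in PMM. Its intensities were 71 to 215 units in LDM and 75 to 255 in PMM. PMM was higher in 3 of 3 pairs, by 0.43, 0.85 and 0.02, but the groups overlapped, and the difference of 0.43 (SE 0.61, 95% interval -0.97 to 1.84) had an exact permutation p of 0.5.

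ATP2A1, the calcium pump of fast fibres, lay at 9.54, 8.52 and 9.20 in LDM and at 9.85, 8.67 and 8.98 in PMM. Its difference was 0.08 (SE 0.42, 95% interval -0.88 to 1.04), with an exact permutation p of 0.9 and pairs of 0.31, 0.14 and -0.22. Its intensities, 322250 to 550395 units, were all read from the scan at lower gain and scaled up, as were those of RYR1, both SLN probes, CASQ1 A_72_P178481 and the ATP2A2 probes of the non-muscle record. PLN was scaled up in this way on 5 of 6 arrays and CASQ1 A_72_P414408 on 3 of 6, so their arrays mixed both gains. The part of the gain in their values was not tested. No spot of the 13 probes was flagged as saturated. SLN A_72_P035506 read 709005 units on LDM 1 and 714882 on PMM 1, where the brightest probe of the array read 743279 and 767261. Whether signals that high were compressed was not tested.

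SLN, the small peptide that uncouples ATP use by SERCA from calcium transport, had 2 probes. A_72_P035506 lay at 10.03, 9.34 and 9.83 in LDM and at 10.23, 9.68 and 9.60 in PMM, a difference of 0.11 (SE 0.34, 95% interval -0.66 to 0.87, exact permutation p 0.8). A_72_P420314 lay at 9.80, 9.08 and 9.59 in LDM and at 9.66, 9.24 and 9.28 in PMM, a difference of -0.10 (SE 0.32, 95% interval -0.83 to 0.64, exact permutation p 0.9). The probes had opposite signs and groups that overlapped, so no direction was measured for SLN.

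PVALB, the parvalbumin that speeds relaxation of fast fibres, lay at 4.07, 2.08 and 2.47 in LDM and at 3.13, 2.97 and 2.94 in PMM, with SDs of 1.06 and 0.10. The PMM arrays lay close together and the LDM arrays did not, a difference of spread that was not tested. The LDM arrays lay on both sides of the PMM arrays, and the difference of 0.14 (SE 0.50, 95% interval -1.01 to 1.28) had an exact permutation p of 1.0. The pairs went -0.94, 0.89 and 0.46.

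**Figure D2:**
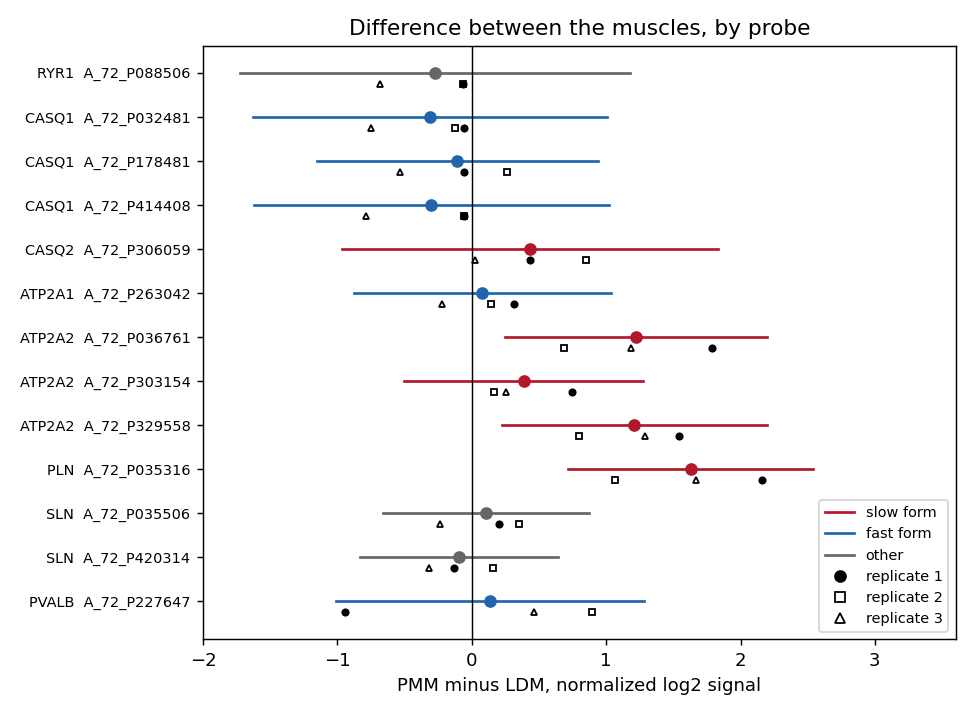
Difference in normalized log2 signal, PMM minus LDM (x axis), for each of the 13 probes, with the mean as a large point, its 95% interval from limma as a line, and the 3 pairs of the same number as small marks, in the same colours by form. The intervals of PLN and of the ATP2A2 probes A_72_P036761 and A_72_P329558 lie above 0 and the other 10 include it.

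A good part of the variation of these genes followed the replicate number rather than the muscle. For RYR1 the number took 94.5% of the sum of squares over the 6 arrays and the muscle 2.58%. For PLN the shares were 15.5% and 78.5%. For all probes tested the median shares were 74.2% for the number, 6.54% for the muscle and 11.0% for the remainder, and 7 of the 13 probes had a number share over 80%. The arrays numbered 1 were the brightest in both muscles on 11 of 13 probes. They stood above the mean of the others by 3.14-fold for CASQ2, 2.83-fold for CASQ1 A_72_P414408 and 1.81-fold for ATP2A1. Neither the 7 of 13 nor the 11 of 13 was counted over all probes, so neither can be read as particular to these genes.

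**Figure D3:**
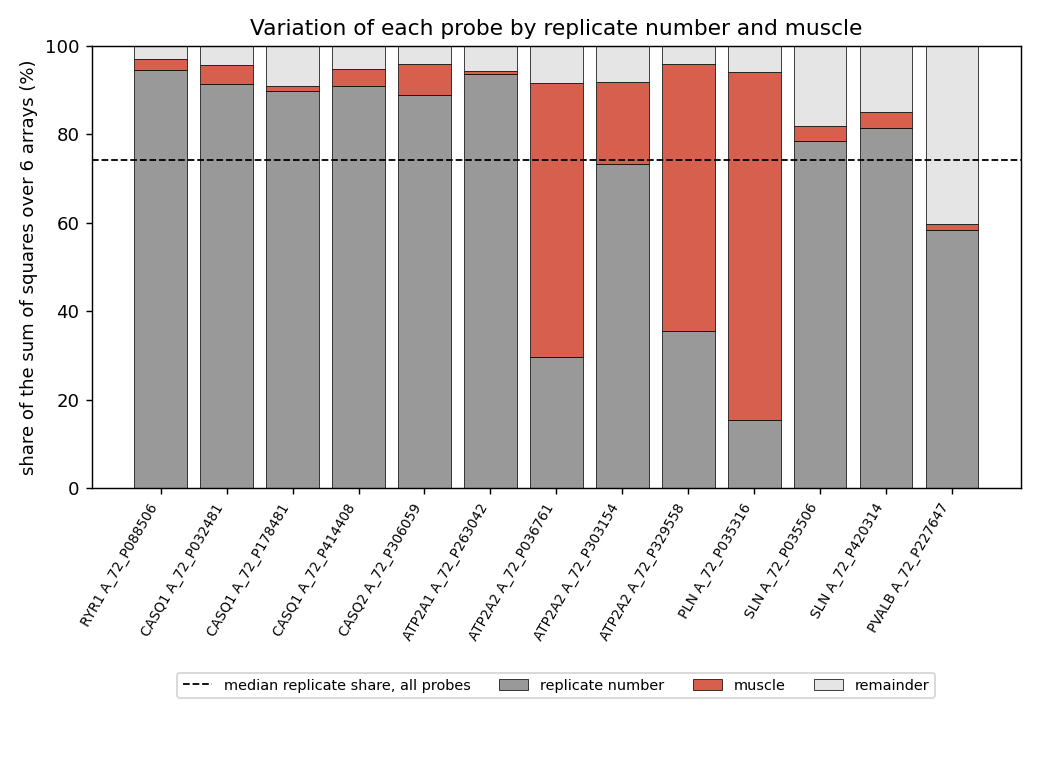
Share of the sum of squares over the 6 arrays (y axis, percent) that went with the replicate number, the muscle and the remainder for each of the 13 probes, with the median number share of all probes tested as a dashed line at 74.2%. PLN and the ATP2A2 probes A_72_P036761 and A_72_P329558 are the bars with the largest muscle part, and RYR1 has 94.5% with the number.

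The slow form was then set against the fast form on the same array, which removes any factor that scales both. The value is a log2 signal of 1 probe minus another, so its level has no meaning across probes and only its change between muscles is read. The SE of such a change is that of the difference between the muscle means, without pairing and not from limma. Each form was read by its brightest probe, which for ATP2A2 was A_72_P329558, of the record titled as a non-muscle transcript. ATP2A2 minus ATP2A1 was -2.87, -2.16 and -3.53 in LDM, with a mean of -2.86 ± 0.69 (SD, n = 3). In PMM it was -1.64, -1.51 and -2.02, with a mean of -1.72 ± 0.27 (SD, n = 3). All PMM arrays were above all LDM arrays. The change was 1.13 (SE 0.42), higher in 3 of 3 pairs by 1.23, 0.65 and 1.51, with an exact permutation p of 0.1 and an exact sign-flip p over the pairs of 0.25, each the smallest the design allows. With the ATP2A2 probe A_72_P036761 the change was 1.14, but with A_72_P303154 it was 0.31 with an exact permutation p of 0.5. The direction of the pump pair thus held on each ATP2A2 probe and its size did not.

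CASQ2 minus CASQ1 was -10.93, -11.38 and -11.71 in LDM and -10.44, -10.79 and -11.16 in PMM. The groups overlapped, with a change of 0.54 (SE 0.30) and an exact permutation p of 0.2. Within pairs the changes lay close together, at 0.49, 0.59 and 0.55 (SD 0.047), higher in PMM in 3 of 3, with an exact sign-flip p of 0.25, the smallest possible. These 2 pairs of forms were the only ones compared.

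**Figure D4:**
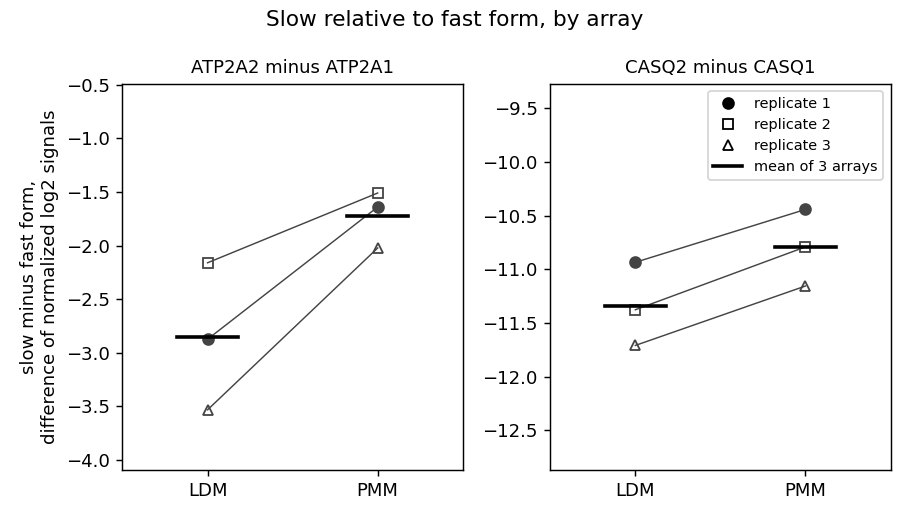
Log2 signal of the slow form minus that of the fast form on each array (y axis), for ATP2A2 minus ATP2A1 and for CASQ2 minus CASQ1, with lines joining LDM and PMM arrays of the same number and black bars for the mean of 3 arrays. All lines rise from LDM to PMM, by 0.65 to 1.51 for the pumps and by 0.49 to 0.59 for the calsequestrins. ATP2A2 is read by A_72_P329558, of the record titled as a non-muscle transcript.

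Taking each gene by its brightest probe, the median difference was 1.21 over the 3 slow forms (ATP2A2, CASQ2 and PLN), 0.08 over the 3 fast forms (ATP2A1, CASQ1 and PVALB) and 0.12 over all 8 genes, beside -0.01 over all 2785 genes tested and -0.04 over all probes. With 3 genes each, the medians are the values of 1 gene, ATP2A2 A_72_P329558 of the non-muscle record for the slow forms and ATP2A1 for the fast forms. With ATP2A2 A_72_P303154 (0.39) instead, the slow median would be the value of CASQ2 (0.43). The lists are short and no test was made of them.

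Of 63 other genes of muscle calcium handling, 15 had a named probe and 13 were tested. None of the 13 was called by limma, with or without the block, at probe or gene level, and 0 had an unadjusted p under 0.05. The median difference was 0.03, with 7 higher in PMM and 6 lower, and 0 had muscles that did not overlap. Among those higher, SLC8A1, the sodium-calcium exchanger, differed by 0.57 (SE 0.56), with pairs of 1.75, -0.15 and 0.11, so that the first pair carried the difference. ITPR1, the inositol trisphosphate receptor, differed by 0.17, with pairs of 0.34, 0.08 and 0.10. PPP3CA, a catalytic subunit of calcineurin, differed by 0.17, with pairs of 0.04, 0.43 and 0.05, and PPP3CC, another, by 0.11. NFATC1, the transcription factor that calcineurin activates, differed by 0.11.

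Among those lower in PMM, CAMK2D, a calcium-calmodulin kinase, differed by -0.51, with pairs of -0.56, -0.04 and -0.92. ATP2B1, the calcium pump of the surface membrane, differed by -0.39, with pairs of -0.40, -0.16 and -0.62. Subunits of the voltage sensor CACNG1 and CACNA2D1 differed by -0.33 and -0.32, and CAMK2G by -0.14. All 3 pairs were lower in PMM in 3 of the 13 genes, CAMK2D, ATP2B1 and CACNA2D1, and higher in 2, ITPR1 and PPP3CA, beside the 19.4% and 16.4% of all probes.

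**Figure D5:**
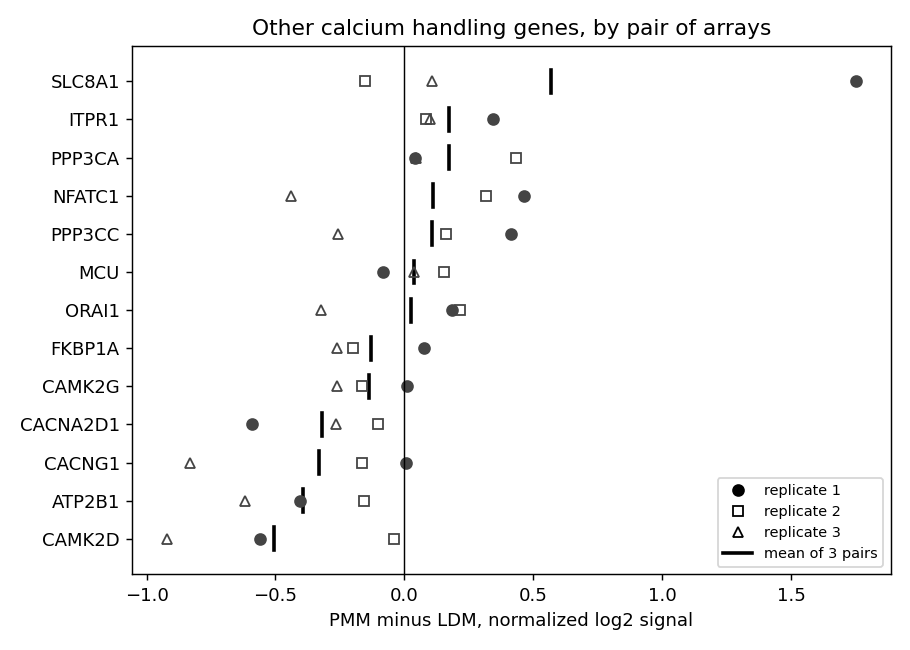
Difference in normalized log2 signal, PMM minus LDM (x axis), for the 13 other calcium handling genes tested, with the 3 pairs of the same number as marks and their mean as a bar. The means run from -0.51 for CAMK2D to 0.57 for SLC8A1, and 0 of 13 genes had an unadjusted limma p under 0.05.

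Over the 6 arrays the named genes closest to ATP2A1, of 2778 compared, were ADAM9, a membrane metalloproteinase (Pearson r 0.993), CYP27A1, a sterol hydroxylase (0.992), and MYOZ3, a Z-disc protein of fast fibres (0.988). Those closest to ATP2A2 A_72_P329558 were VEGFA, the vascular growth factor (0.995), CEND1 (0.989) and MDH1, the cytosolic malate dehydrogenase (0.989), which differed between muscles by 0.77, 1.59 and 1.08. With 6 arrays that share muscles and scan days, such a likeness is a description of these arrays. PLN correlated with ATP2A2 A_72_P036761 at 0.76, with A_72_P329558 at 0.83 and with A_72_P303154 at 0.19.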

How the data were processed

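Both muscles were profiled on 1-colour Agilent arrays, 3 LDM and 3 PMM. The intensity values were deposited by the authors as scanner output of Agilent Feature Extraction 10.5.1.1, background-subtracted per the file headers. The deposited series table held processed spot intensities, not log2 values, and was used only as an alternative. Array numbers limit the precision. Control spots and outlier spots were left out, repeated spots were averaged, and the log2 signal was taken minus each array's 75th percentile. Probes well above background on all 3 arrays of either muscle, with at least 2 values in each, were tested with limma 3.58.1 in R 4.3.3 (Benjamini-Hochberg over 25837 probes, threshold 0.05), tested first on simulated data. Probes were named through the files and RefSeq (4997 of 43603 probes, 3366 genes). The members and lists were chosen with earlier results of these data known. Every member probe was named. Of the calcium handling list, up to 5 genes higher and 5 lower were named by size of difference, and for ATP2A1 and ATP2A2 the 3 genes of highest correlation. Deviations from the muscle means correlated at 0.62, 0.70 and 0.56 between arrays of the same number and at -0.01 or below between others. Arrays of 1 number were therefore also compared as pairs, and blocked in limma as an alternative. The main limma fit, with its SE, intervals and p, had no block. Nothing in the labels ties numbers to animals, so p-values measure the spread between these samples. Alternatives were normexp background correction, quantile, median and detected-probe scaling, kept outliers, the deposited series table and other filters. Gene-level tests, blocks by replicate number or slide, and each array or pair left out were further alternatives. Probe positions in the genome were not analysed here.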

Additional observations from a re-analysis of the deposited data

How the results depend on the processing

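PLN, the 3 ATP2A2 probes and both slow minus fast values kept their direction under every alternative run. Of the other differences, normexp background correction, with or without the replicate block, turned ATP2A1 to -0.11, PVALB to -0.020, SLN A_72_P035506 to -0.12, PPP3CA to -0.013 and PPP3CC to -0.056. Quantile normalization turned ATP2A1 to -0.0010, also with the block. The slide block, and likewise the replicate block without replicate 1, turned ATP2A1 to -0.039, SLC8A1 to -0.023, NFATC1 to -0.062 and PPP3CC to -0.048, and averaging the probes of a gene turned NFATC1 to -0.014. The replicate block without replicate 2 turned PVALB, and with it the median of fast forms, to -0.24 and SLN A_72_P035506 to -0.017, and without replicate 3 it turned PVALB to -0.026, CASQ1 A_72_P178481 to 0.10 and SLN A_72_P420314 to 0.013. The median of fast forms also turned under normexp (-0.11), quantile normalization (-0.0010) and the slide block (-0.039), and kept its direction in 14 of 24 alternatives. The median of all 8 genes turned under normexp (-0.064) and kept it in 20 of 24. The cause was not tested. Requiring detection on all 6 arrays left no value for ITPR1.

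The pairing by replicate number changed no call at probe level. The block called 2 genes at gene level (PLN with 1.63, ATP2A2 with 1.21), the slide block 2 probes (PLN with 1.37, ATP2A2 A_72_P329558 with 1.04), and the replicate block without replicate 1 called 3 (these and ATP2A2 A_72_P036761 with 0.93), with 0 in every other fit. The calls over all probes were 8, and by alternative 17 with the replicate block, 529 with the slide block, 805, 1 and 0 with the block without replicate 1, 2 and 3, and otherwise from 0 to 9. No gene of the other calcium handling genes was called in any. With the slide block and with the block without replicate 1, the SE was pooled over probes or nearly so.

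With each array left out in turn and no block, differences ran from 1.40 to 1.99 for PLN, 0.78 to 1.52, 0.82 to 1.45 and 0.11 to 0.69 for ATP2A2 A_72_P036761, A_72_P329558 and A_72_P303154, -0.27 to 0.33 for ATP2A1, -0.91 to 0.26 for RYR1, -0.89 to 0.14, -0.48 to 0.24 and -0.86 to 0.14 for CASQ1 A_72_P032481, A_72_P178481 and A_72_P414408, -0.11 to 0.98 for CASQ2, -0.26 to 0.74 for PVALB, and -0.093 to 0.25 and -0.30 to 0.055 for SLN A_72_P035506 and A_72_P420314. The medians ran from 0.82 to 1.45 for slow forms, -0.27 to 0.30 for fast forms and -0.15 to 0.52 for all 8 genes. Others that changed sign were SLC8A1 (-0.13 to 0.96), ITPR1 (-0.23 to 0.50), PPP3CA (-0.071 to 0.48), NFATC1 (-0.42 to 0.54), PPP3CC (-0.14 to 0.41), CAMK2G (-0.49 to 0.14) and CACNA2D1 (-0.60 to 0.021).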
